A study of Homo sapiens with 4 samples.

Results

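The genes described here encode splicing factors and heterogeneous nuclear ribonucleoproteins (hnRNPs), the proteins that build the spliceosome or guide it along pre-mRNA. Members were chosen by symbol alone: SRSF, TRA2A, TRA2B and SRRM genes, HNRNP genes, SF1, U2AF, SF3A and SF3B genes, SNRP and SNRNP genes, and PRPF genes, wherever a peak list paired the symbol with a coding RefSeq transcript. The rule found 58 genes of 11270 coding genes named in either list, with 47 members in the first replicate's list and 49 in the second's. Their unique peaks numbered 126 of 23698 in replicate 1 and 138 of 22048 in replicate 2. RNA recovered with the RNA-binding protein YBX1 was sequenced from PANC-1, an established human pancreatic cancer line, with 2 YBX1 immunoprecipitates (IP) and 2 inputs. All 4 samples came from cells given vesicles derived from CAFs, the usual abbreviation for cancer-associated fibroblasts, then crosslinked with ultraviolet light and treated with RNase I and DNase, per the labels' protocols. Cells without vesicles and a control antibody were not analysed here, so the lists describe recovery over input within treated cells and carry no effect of the vesicles. Whether the replicates were separate cultures is not stated in the labels.

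YBX1 carries a cold-shock domain and coats messenger RNA in the cytoplasm, and it was first described as a protein that binds the Y-box, a promoter element built on an inverted CCAAT sequence. Splicing removes introns through small nuclear ribonucleoproteins (snRNPs), whose RNA sits in a ring of Sm proteins. SF1, U2AF and the SF3 complexes mark the branch point and the 3′ splice site, PRPF proteins drive the later rearrangements, and SR proteins and hnRNPs promote or block the use of particular exons. Many of these genes control their own messages through alternative exons, and their transcripts are abundant in dividing cells.

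Each list set 1 IP library against the input of the same number, and the fold, score and false discovery rate given per peak are the authors' own values. A pair below means a replicate 1 peak that overlapped, by 1 bp or more, a replicate 2 peak naming the same gene. "Inside" means that the middle of the peak lay within the deposited transcript bounds of the gene. Read counts are reads in the peak, not scaled to depth. Peaks carry no strand, so overlapping or antisense genes cannot be told apart.

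Of the 58 members, 26 held a pair (44.8%, 95% Wilson interval 32.7 to 57.5), against 36.8% of all coding genes named in either list. Pairs with both peaks inside the gene were found for 18 members (31.0%, 20.6 to 43.8), against 24.7% of all. Both lists named 38 members (65.5%, 52.7 to 76.4), against 56.2% of all. In each of these counts the background share lay within the members' interval, so the members' share is near the background. From the side of the genome, the RefSeq gene table held 88 genes of the rule, and 57 of them were named in either list (64.8%, 54.4 to 73.9) against 54.6% of protein-coding genes. A pair was found for 25 of those 88 (28.4%, 20.0 to 38.6) against 20.2%. PRPF4B is the member whose symbol the gene table does not hold. Intervals cover counting error only and treat genes as independent.

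Peaks were counted as well. Of the 126 member peaks in replicate 1, 52 were overlapped by a replicate 2 peak (41.3%, 33.1 to 50), against 32.1% of all peaks of coding genes. In replicate 2, 59 of 138 were overlapped (42.8%, 34.8 to 51.1), against 34.9%. The background lay just outside the members' interval in replicate 1 and just within it in replicate 2. Members' peaks also held more reads: the replicate 1 median was 88, against 45 for other genes, and the replicate 2 median was 22.5, against 15. Peaks of 1 gene share their source, so these intervals are too narrow for a statement about genes.

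**Figure D1:**
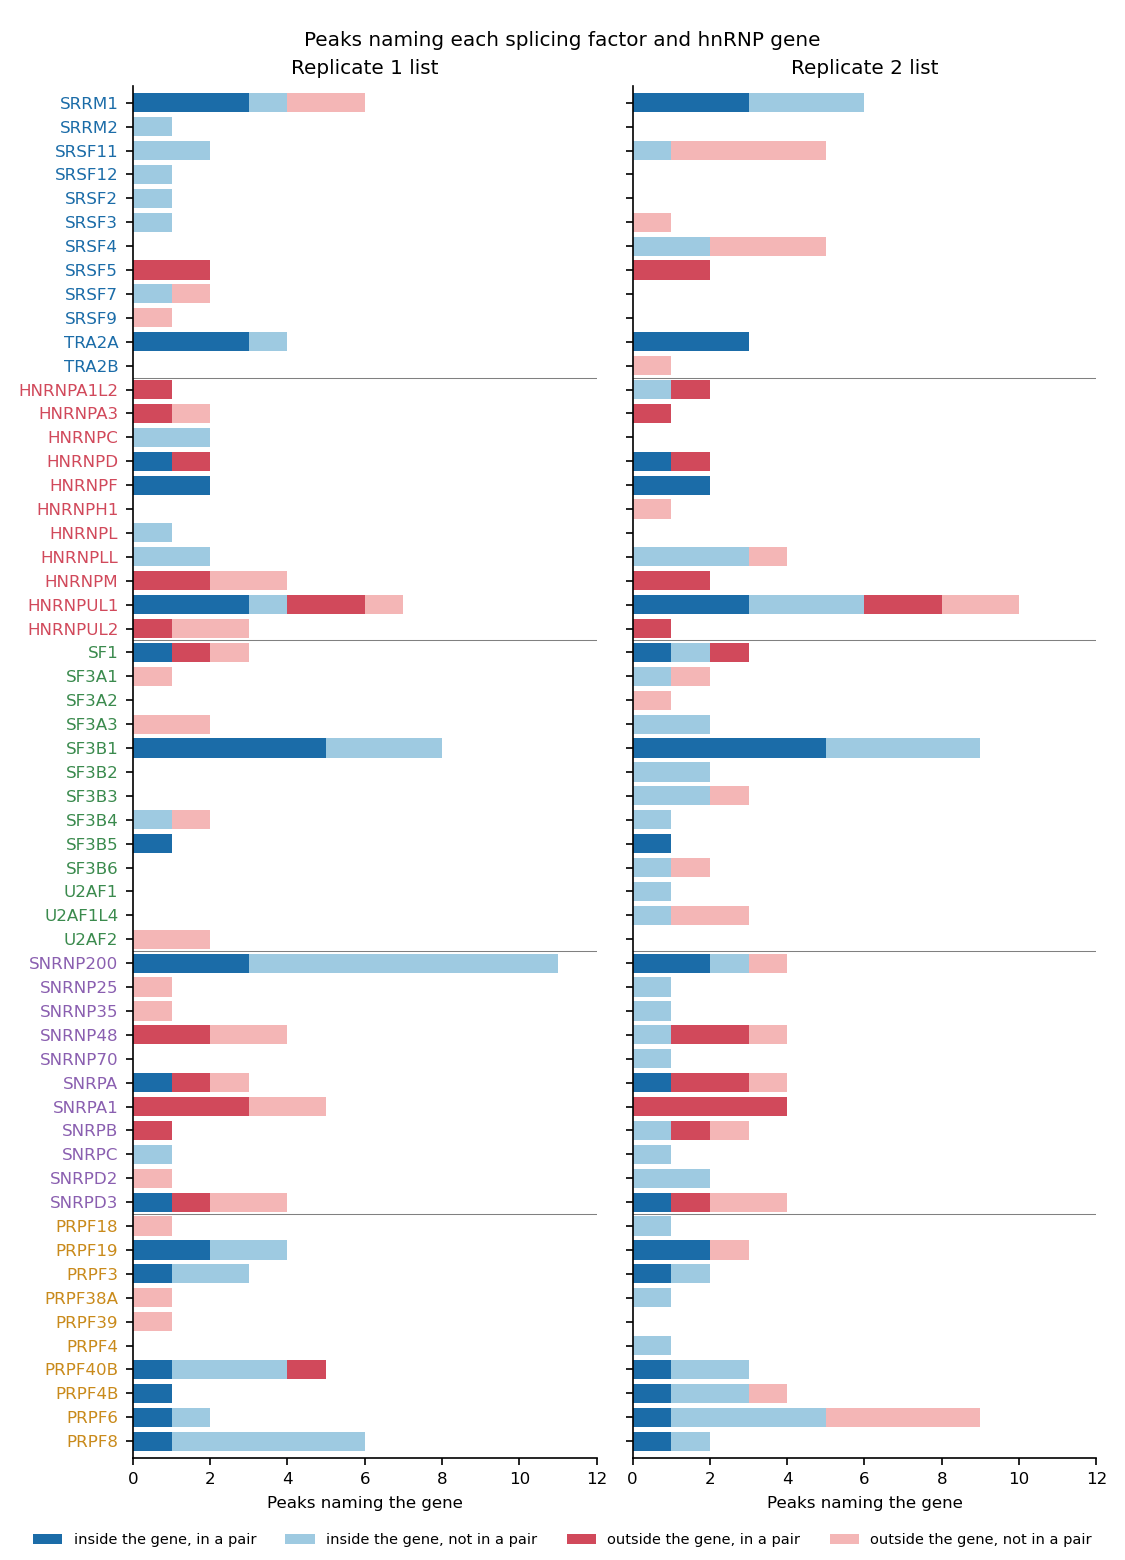
Number of peaks naming each of 57 of the 58 genes in the replicate 1 list (left) and the replicate 2 list (right), coloured by whether the peak lay inside the gene and whether it was in a pair; grey lines divide, from top to bottom, SR proteins, hnRNPs, branch point and 3′ splice site factors, Sm and snRNP proteins, and PRPF proteins. SNRNP200 had 11 peaks in replicate 1, and SF3B1 had 8 and 9 peaks with 5 pairs inside the gene.

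Read depth was compared class by class, since overlap rises with reads in both lists. In the replicate 1 class of 47 to 169 reads, 40.5% of 42 member peaks were overlapped, against 39.8% of other peaks. In the class of 170 reads or more the shares were 59.1% of 44 member peaks and 64.9% of others. Between 21 and 46 reads members stood at 33.3% (18.6 to 52.2), against 18.5%. Replicate 2 gave 77.3% of 44 member peaks against 72.9% at 50 reads or more, and 33.3% against 40.3% between 16 and 49 reads. Members thus lay above the others in 2 of 4 classes of replicate 1 and in 3 of 4 of replicate 2, and in 1 of these 8 classes, 21 to 46 reads, the members' interval left the others' share outside.

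**Figure D2:**
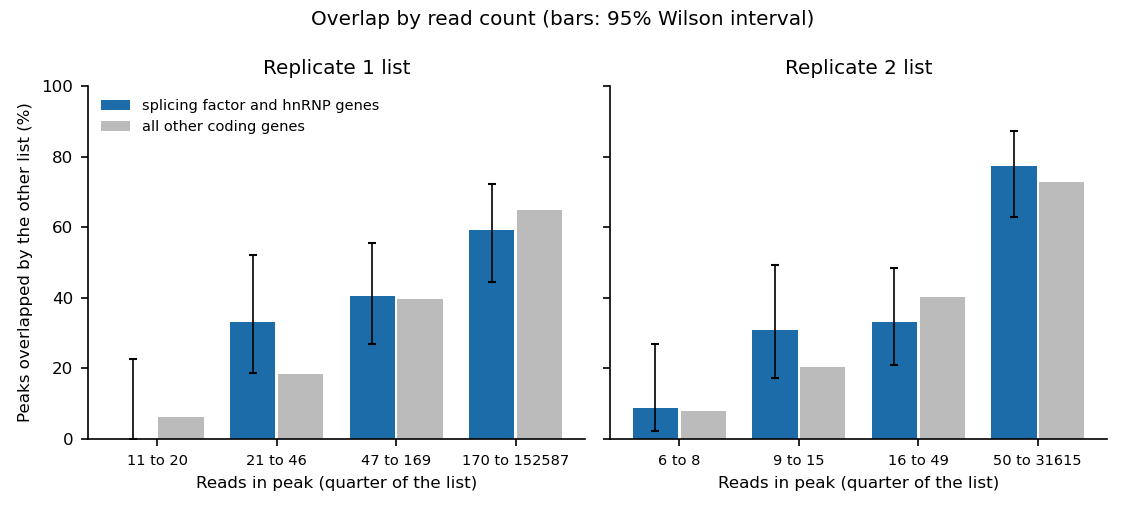
Percentage of peaks overlapped by the other list, by class of reads in the peak (x axis, 4 classes per list), for the splicing factor and hnRNP genes (blue, with 95% Wilson intervals) and all other coding genes (grey). The share climbs with reads for both: in the top class members reached 59.1% in replicate 1 and 77.3% in replicate 2.

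Among hnRNPs, which package nascent RNA and bind exonic and intronic silencers, 11 genes were named, 7 held a pair and 3 held one inside the gene. Over all coding genes named in either list, 36.8% held a pair and 24.7% held one inside. Role groups had 11 to 13 named genes each, too few for a comparison between groups. HNRNPF, a member that binds runs of guanine, had the deepest pair of the group inside its gene. The exon peak at chr10:43881142-43883475 held 6085 reads with a fold of 7.66 in replicate 1, and its partner at chr10:43881148-43883474 held 2565 reads with a fold of 9.49 in replicate 2. By reads these stood in the top 0.84% and 0.585% of their lists, while by fold 67.1% and 91.4% of the lists lay at or above them. A promoter-class pair of HNRNPF held 243 and 121 reads with folds of 5.86 and 7.02. HNRNPF shares sequence with HNRNPH1, so reads could be split between such relatives.

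HNRNPUL1, an hnRNP U-like protein linked to the DNA damage response, held 5 pairs. Its widest peak, chr19:41765017-41767756, held 8835 reads (fold 6.71) in replicate 1 and 1886 reads (fold 7.21) in replicate 2. That peak lies before the HNRNPUL1 start, at a deposited distance of -1994 bp, and its middle falls inside AXL, which encodes a receptor tyrosine kinase. A further pair named for HNRNPUL1 at chr19:41748492-41749027, with 215 and 40 reads, also lay in AXL. Inside HNRNPUL1 itself stood 3 named pairs: a promoter-class pair with 319 and 152 reads (folds 5.47 and 9.05), one with 138 and 80 reads (folds 15.77 and 13.98), and an exon pair with 103 and 49 reads (folds 5.04 and 11.31).

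Pairs of the remaining hnRNPs lay outside their genes, except 1 pair of HNRNPD. HNRNPM, which regulates alternative exons in epithelial and mesenchymal cells, had a pair of 626 and 145 reads (folds 10.16 and 10.34) at chr19:8503221-8503952 and one of 70 and 15 reads (folds 11.18 and 63.28), both upstream of its start and inside MARCH2. HNRNPUL2, related to HNRNPUL1, had a promoter-class pair at chr11:62495694-62496613 with 286 and 69 reads and folds of 20.57 and 38.62, which lay in TTC9C. HNRNPD, also called AUF1, binds AU-rich elements. Its pair inside the gene held 37 and 32 reads (folds 12.14 and 26.25), and its intergenic pair held 452 and 59 reads at a distance of -28005 bp. HNRNPA3 had an intergenic pair of 285 and 92 reads. HNRNPA1L2, a near-identical copy of HNRNPA1, had a pair of 64 and 38 reads just before its start, and its assignment is uncertain for that reason. HNRNPL, which binds CA repeats, had 1 named peak, with 38 reads, and its relative HNRNPLL had 2 and 4 peaks of 15 to 32 reads, none of them in a pair.

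SR proteins carry stretches of arginine and serine and usually promote exon inclusion. Of these genes 12 were named, 3 held a pair and 2 held one inside, beside 36.8% and 24.7% of all coding genes named. SRRM1, a coactivator that joins SR proteins to the exon junction complex, held 3 pairs in its gene. Its deepest, at chr1:24998667-24999728, held 750 and 357 reads with folds of 3.96 and 6.28, which 95.1% and 99.1% of the lists equalled or passed. The other SRRM1 pairs held 139 and 104 reads (folds 3.25 and 15.01) and 52 and 53 reads (folds 5.61 and 16.73). TRA2A, a splicing activator related to the fly sex determination factor transformer 2, also held 3 pairs inside. They held 520 and 205 reads (folds 3.55 and 7.41), 299 and 160 reads (folds 2.84 and 19.78), and 107 and 27 reads (folds 22.17 and 7.97). The last is among the 4 pairs of 55 in which the fold was higher in replicate 1.

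SRSF5 was the remaining SR gene with a pair, and neither of its pairs lay near the gene. At distances of -54044 and -58190 bp in replicate 1, they held 481 and 52 reads and 42 and 12 reads. Among SR genes with no pair, SRSF9 and SRSF7 had the deepest peaks. The SRSF9 peak, chr12:120897665-120898871, held 342 reads with a fold of 3.12 in replicate 1. It was classed as intergenic and lay past the end of SRSF9. The SRSF7 exon peak held 248 reads with a fold of 3.96, also in replicate 1. SRSF2, which overlaps MFSD11, and SRSF3 each had a replicate 1 peak inside the gene, with 173 reads (fold 3.71) and 181 reads (fold 5.06), and no replicate 2 peak over it. SRSF4 had 5 peaks in replicate 2 and no row in the replicate 1 list. SRSF1, SRSF6, SRSF8 and SRSF10 had no row of this kind in the lists as used here.

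Branch point and 3′ splice site factors were all named, 13 of 13 in the gene table, but 6 of the 13 by replicate 2 alone, and 3 held a pair. SF3B1, the scaffold subunit that holds the branch point adenosine and is mutated in several cancers, held 5 pairs, all inside. They ran along the later part of the gene, between 29693 and 36577 bp after the start. The pair at chr2:198267216-198267581 held 183 and 104 reads with folds of 16.13 and 46.6, and the pair at chr2:198264673-198265717 held 222 and 175 reads with folds of 6.37 and 13.63. The others held 104 and 90, 92 and 51, and 42 and 31 reads. SF3B5, a small SF3B subunit, is an intronless gene with 1 pair. Its peak chr6:144415942-144416808 held 3594 reads (fold 11.54) in replicate 1, against 538 reads (fold 8.56) in replicate 2.

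SF1, the protein that first recognises the branch point, had a pair inside the gene with 105 and 96 reads (folds 6.91 and 50) and a pair upstream, inside MAP4K2, with 36 and 15 reads (folds 20.82 and 22.43). U2AF2, the large subunit that reads the polypyrimidine tract, had 2 named peaks in replicate 1, of 354 and 55 reads, both before its start, and none in replicate 2. U2AF1, the small subunit, had a replicate 2 exon peak of 149 reads. SF3B4 was named in both lists at different places: 207 and 138 reads in replicate 1 and 224 reads in replicate 2, with no overlap.

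Of Sm and snRNP proteins 11 were named, 10 of them in both lists, 6 held a pair and 3 held one inside. The shares over all coding genes named were 56.2%, 36.8% and 24.7%. SNRNP200, the helicase that unwinds the U4 and U6 RNAs, held 11 replicate 1 peaks, all inside, and 4 in replicate 2. Its pairs held 305 and 56 reads (folds 17.06 and 26.61), 46 and 56 reads, and 58 and 34 reads (folds 11.37 and 14.58), and the first 2 share a replicate 2 peak. SNRPD3, an Sm ring protein, had a pair over its start with 110 and 28 reads (folds 6.15 and 8.93). A far deeper SNRPD3 pair, chr22:24936115-24939166 with 1950 and 577 reads (folds 7.39 and 21.53), lay upstream and inside GUCD1. SNRPA, the U1 protein A, had a promoter-class pair inside with 186 and 138 reads (folds 6.69 and 10.46). Its other pairs, with 322 reads in their shared replicate 1 peak and 21 and 11 in the replicate 2 peaks, lay upstream, with the replicate 1 middle in C19orf54 and both replicate 2 middles in ITPKC.

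SNRNP48, SNRPB and SNRPA1 held pairs outside their own bounds only. SNRNP48, a protein of the minor spliceosome, had a pair of 1688 and 311 reads (folds 6.27 and 10.01) at chr6:7582858-7586828, within DSP, which encodes desmoplakin, a protein of epithelial junctions. SNRPB, which encodes the Sm proteins B and B′, had a pair of 628 and 218 reads (folds 4.28 and 24.87) within ZNF343. SNRPA1, the U2 protein A′, held 5 pairs upstream, built from 3 replicate 1 peaks and 4 replicate 2 peaks. The deepest of them held 468 and 54 reads with folds of 10.1 and 62.56 and lay in PCSK6.

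Of PRPF genes 11 were named, 7 held a pair and all 7 held one inside, beside 36.8% and 24.7% of all coding genes named. PRPF19, the ubiquitin ligase of the complex that activates the spliceosome, had an exon pair of 283 and 149 reads (folds 8.1 and 13.64) and a promoter-class pair of 33 and 19 reads with folds of 23.69 and 34.58. PRPF6, the protein that bridges the U5 and U4/U6 snRNPs, had a shallow exon pair at chr20:62642601-62642913, of 52 and 31 reads, with folds of 18.82 and 118.12. The fold of 118.12 stood in the top 0.513% of the replicate 2 list, while by reads 33.2% of the list lay at or above that peak. Its false discovery rate was 56.56%. PRPF8, the protein at the catalytic centre, had an intron pair of 1109 and 96 reads with folds of 10.5 and 10.87. PRPF40B held an exon pair of 190 and 108 reads where FMNL3 also lies, and its replicate 2 peak also reached a replicate 1 peak of 98 reads past the gene's end. PRPF3 and PRPF4B each had 1 exon pair, of 43 and 49 reads and of 52 and 31 reads. PRPF38A and PRPF18, with at most 51 and 44 reads in a named peak, held none.

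The pairs as a whole numbered 55, from 52 peaks in each list, and 32 of them had both peaks inside the gene. The median pair had a fold of 8.51 in replicate 1 and 16.73 in replicate 2, with 147 and 56 reads. Fold was higher in replicate 2 in 51 of 55 pairs, and reads were higher in replicate 1 in 51. Folds of the lists are scaled separately, so this difference is not one between the genes. Across the 55 pairs, which share peaks and genes, Spearman's rho between replicates was 0.705 for reads and 0.454 for fold, beside 0.859 and 0.429 over 7109 pairs of all coding genes. The order of the pairs was thus more alike between replicates by reads than by fold. Median fold of all member peaks was 8.72 against 9.33 for other genes in replicate 1, and 20.0 against 25.31 in replicate 2.

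**Figure D3:**
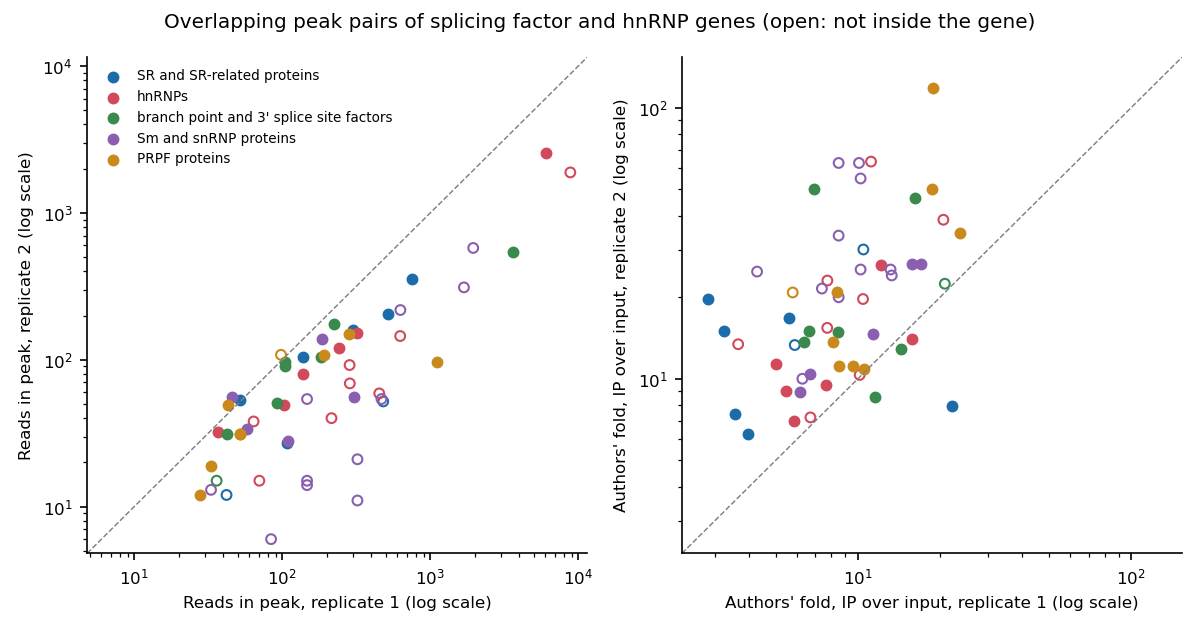
Reads in the peak (left) and the authors' fold of IP over input (right) for the 55 pairs, replicate 1 on the x axis and replicate 2 on the y axis, both log scales, coloured by role; open circles are pairs not inside the gene, and the dashed line marks equal values. Reads lay below the line in 51 pairs and fold above it in 51 pairs.

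The authors' false discovery rate was high for single peaks. Members' rates ran from 17.18% to 21.46% in replicate 1, and in replicate 2 the rate was 100% for 78 of 138 member peaks, against 12348 of 21910 peaks of other genes (56.5% and 56.4%), with 28.51% as the members' lowest. Among the deep pairs described above, the replicate 2 rate was 100% for HNRNPUL1 at 1886 reads and HNRNPM at 145 reads. For HNRNPF at 2565 reads and SF3B5 at 538 reads it was 41.8% and 28.86%. Many shallow peaks also shared identical folds. Peaks whose fold fell on a regular step, within 0.01, made up 11.9% of member peaks against 34.6% of all coding peaks in replicate 1, and 22.5% against 35.4% in replicate 2. The commonest replicate 2 fold, 25.31, was that of 8 of 138 member peaks, against 2800 of all 22048 coding peaks. Member peaks on a step had a median of 18 reads in replicate 1 and 8 in replicate 2.

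Where along the genes the peaks lay was read from the annotation's classes and from transcript bounds. Exon-class peaks made up 34.9% of member peaks against 37.9% of others in replicate 1, and 31.9% against 35.2% in replicate 2. Upstream peaks were 25.4% against 19.9% and 27.5% against 17.1%. Promoter peaks were 15.9% against 14.6% in replicate 1 and 23.2% (16.9 to 30.9) against 13.3% in replicate 2. Intron peaks were 15.1% against 18.5% in replicate 1, and 12.3% (7.84 to 18.8) against 25.4% in replicate 2. Of peaks inside the gene they name, 9.21% of the members' 76 and 9.42% of others had their middle within 1000 bp of the 3′ end in replicate 1. In replicate 2 it was 9.3% of 86 and 7.79%. The median member peak inside sat 38.2% of the way along its gene in replicate 1 and 38.1% in replicate 2, against 59.4% and 56.4% for others. Members' genes with such peaks were also shorter, with median spans of 31230 against 64010 bp and 31510 against 69100 bp, and the part of span in these positions was not tested. Peaks inside a gene that name other genes only are left out of these positions. They were 47.2% of the peaks inside members in replicate 1 and 39.0% in replicate 2, against 24.8% and 21.8% over all coding genes. What leaving them out does to the positions was not tested.

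Peak names and peak positions were compared from both sides. The gene a member peak names held it in 60.3% of replicate 1 peaks (51.6 to 68.4), against 67.6% for other genes. In replicate 2 it was 62.3% (54.0 to 70.0), against 71.2%. The others' share lay within the members' interval in replicate 1 and just outside it in replicate 2. Another listed gene held 30 of the 50 replicate 1 peaks outside and 33 of the 52 in replicate 2, with no count over all genes beside them. The reverse was also counted, after the data had been seen. Inside the bounds of member genes lay 144 peaks in replicate 1, and 68 of them (47.2%, 39.2 to 55.3) named other genes only, against 24.8% over all coding genes. In replicate 2 it was 55 of 141 (39.0%, 31.3 to 47.2), against 21.8%. Such peaks lay in 24 of the 58 members. By role, replicate 1 then replicate 2, they were 30 of 41 and 25 of 48 for branch point and 3′ splice site factors. They were 12 of 26 and 8 of 21 for Sm and snRNP proteins, and 9 of 21 and 10 of 23 for hnRNPs. PRPF genes had 14 of 38 and 11 of 36, and SR genes 3 of 18 and 1 of 13. Peaks of 1 gene share their source, so these intervals are too narrow for a statement about genes. None of the members' peaks named otherwise carried an exon or intron class: 59 and 49 were classed as upstream of a neighbour, 8 and 6 as its promoter, and 1 in replicate 1 as intergenic. Such classes were rare over all coding genes too, with 241 of 5433 peaks named otherwise in replicate 1 and 167 of 4503 in replicate 2. There 3886 and 3185 were classed as upstream. Peaks named otherwise held more reads than those naming the member: the replicate 1 medians were 152 and 84.5 reads, and those of replicate 2 were 74 and 29.5. The same direction held over all coding genes, with medians of 82 and 44 reads in replicate 1 and 24 and 15 in replicate 2.

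**Figure D4:**
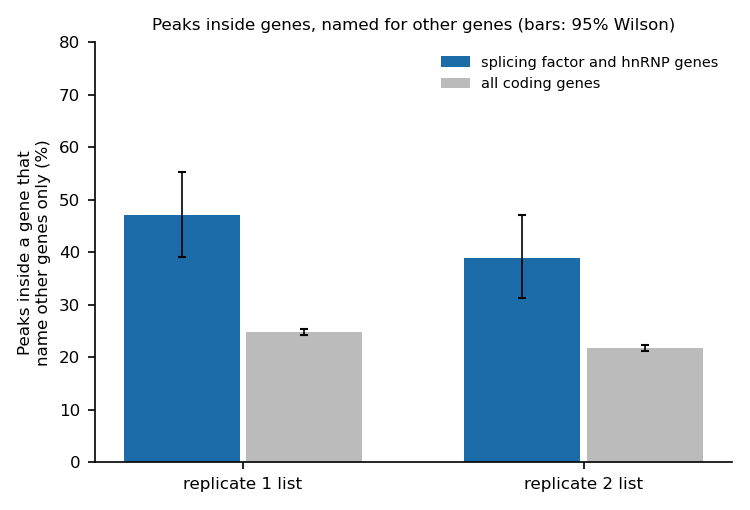
Percentage of peaks lying inside a gene that name other genes only, for the splicing factor and hnRNP genes (blue, left bar of each pair) and all coding genes (grey), in each replicate list, with 95% Wilson intervals. Pooled over all members' peaks, the share reached 47.2% and 39.0%, against 24.8% and 21.8%, and such peaks lay in 24 of the 58 genes.

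Counted by position, whatever gene the peaks name, 26 members had a pair with both peaks inside (44.8%), against 35.7% of all coding genes. The total equals that by name, but the genes differ: 18 are shared, 8 members have named pairs only outside their bounds, and 8 gain a pair. The 8 gained are HNRNPL, SF3A1, SF3A2, SF3B2, SF3B3, SNRNP25, SNRPC and SNRPD2, none of which held a pair by name. Of the 72 pairs by position, 32 named the member in both lists, 36 named it in neither and 4 in one. SF3 genes and SF1 accounted for 18 of the 36. Among branch point and 3′ splice site factors the count of genes with a pair inside was 7 by position, against 3 by name. SR proteins stayed at 2.

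SF3A1, a subunit that joins the U2 snRNP to the branch point complex, had 6 pairs within its bounds, all named for TBC1D10A, CCDC157 or both. The widest, chr22:30727984-30730794, held 835 and 81 reads (folds 10.82 and 18.0). Another held 107 and 50 reads with folds of 32.5 and 22.14. By name SF3A1 had 1 and 2 peaks of at most 51 reads. SF1 had 4 such pairs named for PYGM, which encodes muscle glycogen phosphorylase, and the deepest, chr11:64532008-64533647, held 3028 and 1009 reads with folds of 8.44 and 10.18. SNRPD2, an Sm ring protein, had pairs of 2212 and 587 reads (folds 7.91 and 11.37) and of 491 and 220 reads (folds 8.88 and 11.58). The replicate 2 peaks of both were classed as SNRPD2 exon, whereas the replicate 1 peaks named QPCTL and MIR642B, so the same place carried different names in the lists.

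Further genes showed the same division. SNRPC, the U1 protein C, had a pair of 865 and 553 reads named for UHRF1BP1. SNRNP25, of the minor spliceosome, had one of 499 and 276 reads, named POLR3K in replicate 1 and SNRNP25 in replicate 2. HNRNPL had one of 765 and 356 reads named for ECH1. HNRNPUL1 had 5 pairs named for CCDC97, the deepest with 2083 and 1032 reads at the end of the gene. PRPF8 had 5 pairs named for RILP, one of which held 870 and 116 reads with folds of 8.17 and 62.9. PRPF6 had a pair named for ZNF512B in both lists with 72 and 40 reads and folds of 16.6 and 168.75. SF3B3, whose introns host small nucleolar RNA genes, had pairs named for SNORD111B and for IL34, of 151 and 45, 25 and 15, and 202 and 90 reads. SF3B2 had pairs of 119 and 65 and of 159 and 137 reads named for PACS1, and SF3A2 had 3 named for AMH. SRRM2, a large spliceosome scaffold, is the case of a deep peak without a partner: chr16:2811497-2818303 held 9075 reads with a fold of 6.01 in replicate 1, under the name of its antisense gene SRRM2-AS1, and no replicate 2 peak lay within SRRM2.

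**Figure D5:**
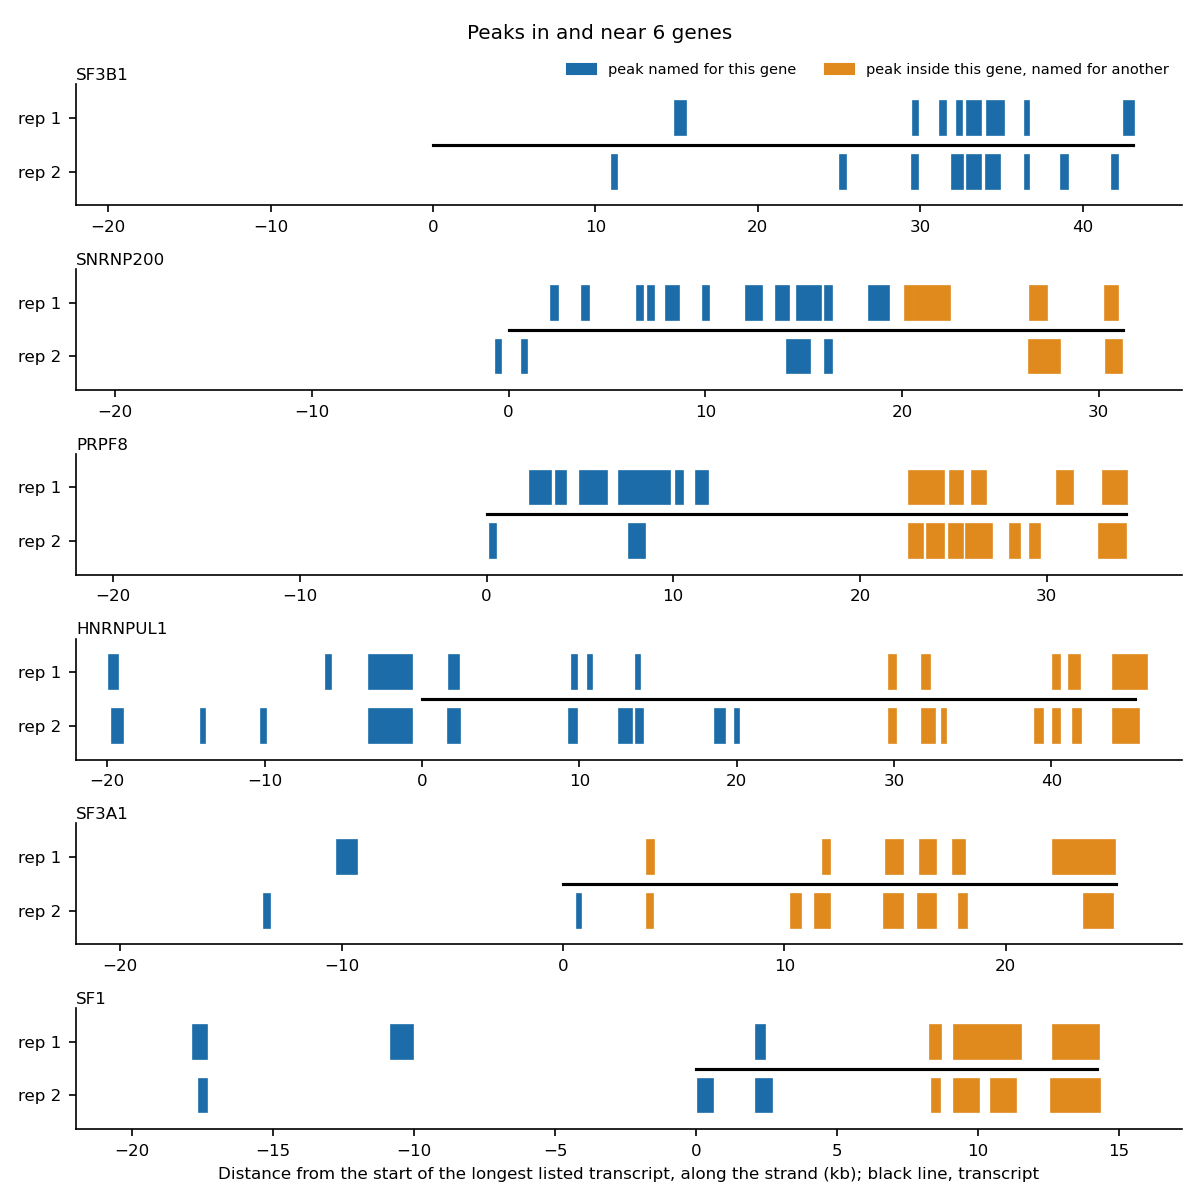
Peaks in and near SF3B1, SNRNP200, PRPF8, HNRNPUL1, SF3A1 and SF1, drawn by distance in kb from the start of the longest listed transcript (black line), with replicate 1 above the line and replicate 2 below; blue peaks are named for the gene and orange peaks lie inside it but name another gene. In the end part of SNRNP200, PRPF8, HNRNPUL1, SF3A1 and SF1 the peaks are orange in both replicates, and SF3B1 has blue peaks alone.

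Paired peaks covered the deposited transcription start in 4 members, HNRNPD, HNRNPUL1, SF3B5 and SNRPD3. For SF3B5 the peaks reached 54 and 58 bp before the start and 812 and 786 bp after it, for HNRNPD 113 and 54 bp before, and for SNRPD3 256 and 37 bp before. The Y-box core, CCAAT on either strand, read as ATTGG on the other, was searched in the 120 bases before and 30 after each RefSeq start on GRCh38.p14, whose starts may differ from the deposited ones on hg19. These stretches are shown because YBX1 was named for that element and paired peaks cover a start of each gene. Capitals mark the matches, and CCAATTGG holds overlapping matches, 1 on each strand.
HNRNPUL1, chr19:41264252-41264401, plus strand: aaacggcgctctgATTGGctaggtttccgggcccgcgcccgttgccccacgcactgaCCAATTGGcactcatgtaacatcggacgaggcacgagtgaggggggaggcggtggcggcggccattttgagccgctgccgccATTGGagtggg
SF3B5, chr6:144095544-144095693, minus strand: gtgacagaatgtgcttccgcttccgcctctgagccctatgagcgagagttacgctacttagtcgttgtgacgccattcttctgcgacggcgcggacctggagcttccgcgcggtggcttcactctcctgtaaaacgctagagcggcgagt
HNRNPD, chr4:82373962-82374111, minus strand: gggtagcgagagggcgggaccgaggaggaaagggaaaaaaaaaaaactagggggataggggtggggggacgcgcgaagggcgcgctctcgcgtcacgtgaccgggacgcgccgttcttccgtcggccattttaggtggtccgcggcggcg
The HNRNPUL1 stretch held 4 matches, at offsets of -107, -63, -60 and 19 from the start, and the other listed starts of that gene, like those of SF3B5, HNRNPD and SNRPD3, held none. The core stood in 22.4% of 35116 promoters in the RefSeq table, in 27.7% of 65 promoters of members and in 1 of the 7 listed for these 4 genes. HNRNPUL1 and SNRPD3 have several listed starts, and which of them matches the start under the peaks was not settled across the builds. A match describes the letters and is no evidence of binding.

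Genes of the same machinery outside the rule were counted beside them. Of 101 other splicing genes, 80 were named and 33 held a pair (41.2%), with 24 holding one inside (30.0%). Over all coding genes named in either list these shares were 36.8% and 24.7%. Groups within the 101 genes had at most 34 named genes each and are given as counts without intervals. Among the spliceosome core it was 17 of 34, EFTUD2, AQR, DHX8, DHX15 and USP39 among them, and among other splicing regulators 11 of 34. PCBP1, a poly(C)-binding protein, had 11082 and 3694 reads in its pair (folds 7.46 and 9.25), and ILF2 had 1597 and 807 reads (folds 8.01 and 11.01). Kinases of SR proteins held a pair in 3 of 6 genes, CLK3, SRPK1 and SRPK2, and exon junction and export genes in 2 of 6. Of the markers set for cell identity, all 5 epithelial genes were named and KRT8, KRT18 and CDH1 held pairs inside. Among fibroblast markers 1 of 6 was named, among immune markers 1 of 4 and among endothelial markers 0 of 3, and none of these held a pair.

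Genes of the rule without a row of this kind in the lists as used here numbered 31 of the 88 in the gene table. They include the abundant hnRNPs HNRNPA1, HNRNPA2B1, HNRNPK and HNRNPU, the Sm proteins SNRPD1, SNRPE, SNRPF and SNRPG, the SR protein SRSF1 and the U4/U6 protein PRPF31. HNRNPCL1 to HNRNPCL4, near-identical copies of HNRNPC, had none either, and reads from such copies could not be placed with confidence. Since names follow the annotation, a gene without a row can still hold a peak under another gene's name.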

How the data were processed

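RNA from 2 YBX1 IP and 2 input samples was sequenced, and 1 peak list per replicate, IP over input of the same number, was used. Per the submitters' processing notes, the tools were cutadapt 1.9.1 (trimming) and Bowtie2 2.2.4 (alignment) and the build hg19; those notes, the labels and the headers name no peak caller. Per the file headers, the deposited values per peak are a read count, a fold over input (a ratio), a score of 10 times the negative log10 of p, a false discovery rate in percent, a length and a distance to a start. Sheet titles give p of 0.001.

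Rows naming coding RefSeq transcripts were collapsed to unique peaks per symbol with Python 3.11.15 and pandas 2.3.3. Overlaps of 1 bp or more were counted, tested on simulated data, and given with 95% Wilson intervals. No test over samples was made, since the files used hold peaks and no per-sample values. Read counts, most with folds and some with positions, were given by rule for 3 kinds of member with a pair. These were the 3 per role with the most reads in the smaller peak, the 5 with the highest smaller fold and the 3 with the most pairs. Of members without a pair, the 2 per role with the most reads were given. Scores and most false discovery rates of single named peaks were not printed. Genes named by position and those without a partner beyond these were chosen after their values were seen. Members and lists were chosen with earlier results of these data known. Promoter sequences are from RefSeq (GRCh38.p14). Stricter scores, 50% overlap, exon-class peaks and peaks inside the gene were tried as alternatives. Library depths were not used here. One member that these rules name is not reported here, though the counts include it.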

Additional observations from a re-analysis of the deposited data

How the results depend on the processing

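Of 35 alternatives, 21 were labelled as within the spread of the main value and 14 as moved. For median fold the spread was 7.9 to 10.04 in replicate 1 and 16.0 to 23.21 in replicate 2. The 18 members with a pair inside the gene were labelled as within. As 38.3% of the 47 members with a peak inside they lie within 32.7 to 57.5, and as 31.0% of 58 just below it. The 11 with exon-class pairs were labelled as moved, though 37.9% of 29 lies within that interval. The count of 26 members with a pair was 25 of 58 (43.1%, against 32.6% of all genes) with 50% reciprocal overlap. It was 25 of 54 (46.3%, against 31.5%) with a -log10 p of 5 or more, and 18 of 47 (38.3%, against 32.7%) inside the gene. In settings added after the data were seen, it was 20 of 49 (40.8%, against 33.2%) without upstream and intergenic classes. By position alone it was 26 of 58 (44.8%, against 35.7%). It fell to 6 of 38 (15.8%, against 13.4%) at a score of 200 or more and to 11 of 29 (37.9%, against 33.1%) with exon-class peaks. The members' share lay above that of all genes in each of these settings, and no interval was computed for it there. With a single list the count is the number of members named, 47 to 49. The replicate 1 overlap of 41.3% became 31.7% at -log10 p of 5 and 6.67% at a score of 200. The replicate 2 overlap of 42.8% became 34.8% with 50% overlap, 56.0% at -log10 p of 5 and 72.7% at a score of 200. The lists start at different scores, 123.6 and 31.38 among member peaks, so these thresholds cut the replicate 2 list more. Inside the gene, the exon share became 57.9% in replicate 1 and 51.2% in replicate 2, where it was 63.6% at a score of 200. The replicate 2 median fold of 20.0 became 15.42 among overlapped peaks and 15.89 inside the gene. Other causes were not tested. No paired analysis was possible because each list already sets an IP against its own input and no per-sample values were used. Shallow peaks limit what can be seen: in replicate 1, 0 of 13 member peaks of 11 to 20 reads were overlapped.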
